A study of Mus musculus with 8 samples.

Results

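The genes described here are 46 listed mouse genes that make ribosomes, in nucleolar transcription, small nucleolar RNA (snoRNA) particles and the assembly of both ribosomal subunits. Each was read from the brightest probe set on the arrays that names that gene alone. For 44 of the 46 such a probe set was present, and all 44 were bright enough to be tested, among 9453 genes tested of 18193 with a probe set of their own. Npm3 and Mrto4 had none in the annotation used here and are not analysed further.

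Affymetrix arrays were made from murine CD4+ T cells of 4 genotypes after 24 h of culture in the presence (2 ng/ml) or absence of TGF-b. TGF-b is a cytokine that restrains T cell growth, and the Smad2 and Smad3 proteins carry its signal to genes. The series compares genotypes to ask which TGF-b responses use which Smad. Naive cells (CD25-, CD44 low, CD62L high) had been sorted from spleens of mice labelled C57BL/6J.

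The groups were Smad2KO (Smad2del/del, deleted conditionally in T cells), Smad3KO (Smad3-/-), Smad2KO_Smad3het (Smad2del/del Smad3+/-, a stand-in for cells lacking both, whose naive cells were too scarce) and wild type (WT). Every culture, those without TGF-b included, was stimulated through CD3e and CD28 (antibodies, 1 ug/ml each) with IL-2 added (10 ng/ml) and with IFN-g and IL-4 blocked (antibodies, 10 ug/ml each). There was 1 array for each genotype and treatment, 8 in all, and this number limits the precision of every value. Separate animals are not stated in the labels. A p-value here therefore reflects only how these cultures vary, and for the TGF-b response that variation includes differences between genotypes. In such bulk samples, fewer cells of a type and less RNA per cell cannot be told apart.

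Values are signals after scaling each array to the same trimmed mean. The 6 arrays of Smad2KO, Smad3KO and WT cells had scaled medians of 30.7 to 35.7, while the 2 Smad2KO_Smad3het arrays stood apart at 107 with and 103 without TGF-b. On these 2 arrays, marker genes of other cells were also brighter, with summed signals for 9 myeloid markers of 2719.6 with and 3128 without TGF-b, against 158 to 285 on the other 6 arrays, and for 5 B cell markers of 1165 with and 624 without, against 59.1 to 80.3. Tests therefore used the 6 arrays, and Smad2KO_Smad3het values are given beside them without a test. All 6 CD4 T cell markers present were above the floor of 32.5 on every array. The probe set of Smad2 read 1046 with and 1155 without TGF-b in Smad2KO cells, against 1031 and 1068 in WT cells, and that of Smad3 read 730.2 with and 614 without in Smad3KO cells, against 548 and 149 in WT cells. Where those probe sets lie relative to the deletions was not determined, so they do not check the labels. Known TGF-b targets did respond over the 3 genotypes, with limma adjusted p-values of 0.000483 for Smad7 (log2 response 1.14) and 0.00216 for Foxp3 (log2 response 2.80), while Il2 had -2.23 (limma adjusted p 0.124).

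Ribosomes are built in the nucleolus. RNA polymerase I copies the ribosomal DNA into a long precursor, snoRNA particles modify its bases and guide its cleavage, and assembly factors fold it with ribosomal proteins into the small (40S) and large (60S) subunits. Activated T cells raise this machinery strongly as they grow, and the transcription factor Myc, which binds the E-box CACGTG, is a known activator of many of its genes.

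Promoter sequences are shown because most of the genes had a mean response on the same side of 0 in the comparison that follows. RefSeq promoters (assembly GRCm38.p6), from 250 bases before to 50 after the annotated start, were matched by symbol for 41 of the 46 genes, and Npm1, Fbl, Rrp12, Bop1 and Rrs1 were not matched. In them 4 motifs were searched on both strands: the E-box CACGTG, the ETS-factor motif CCGGAAG, the NRF1 motif (a palindrome of 10 bases) and the Smad motif GTCTAGAC, none of which contains another. The E-box was in 9 of 41 promoters (22%), against 7.24% of all 27025 promoters and 10.9% of the 7779 promoters of tested genes. The ETS motif was in 13 (31.7%), against 9.12% of all promoters and 21.4% of those of tested genes. The NRF1 and Smad motifs were in 0 of 41, against 0.977% and 0.211% of all promoters. These counts describe letters in a window and were given no test.

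The 250 bases before the start follow, 5′ to 3′ along the gene, for Nolc1, Heatr1 and Ddx10, which fell with TGF-b and hold the ETS motif, and for Nop2 and Rrn3, which hold E-boxes upstream of the start and were chosen after their values were seen. Capitals mark CCGGAAG and CACGTG, on either strand, where the whole motif lies in the stretch. Rrn3 also holds the ETS motif at positions -5 and 19 from the start. The first of these is cut by the end of the stretch and left in lower case, and the second lies past it.
Nolc1, chr19:46075597-46075846 (plus strand): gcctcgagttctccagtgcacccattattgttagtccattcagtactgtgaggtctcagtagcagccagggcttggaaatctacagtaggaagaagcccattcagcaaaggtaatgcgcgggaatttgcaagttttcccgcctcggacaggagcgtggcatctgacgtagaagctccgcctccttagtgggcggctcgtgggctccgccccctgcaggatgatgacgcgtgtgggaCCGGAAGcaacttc
Heatr1, chr13:12395125-12395374 (plus strand): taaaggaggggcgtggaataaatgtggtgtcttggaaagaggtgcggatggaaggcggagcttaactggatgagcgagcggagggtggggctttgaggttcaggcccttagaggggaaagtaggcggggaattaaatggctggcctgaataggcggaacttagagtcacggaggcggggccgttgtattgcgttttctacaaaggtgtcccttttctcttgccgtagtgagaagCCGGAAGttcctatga
Ddx10, chr9:53248113-53248362 (minus strand): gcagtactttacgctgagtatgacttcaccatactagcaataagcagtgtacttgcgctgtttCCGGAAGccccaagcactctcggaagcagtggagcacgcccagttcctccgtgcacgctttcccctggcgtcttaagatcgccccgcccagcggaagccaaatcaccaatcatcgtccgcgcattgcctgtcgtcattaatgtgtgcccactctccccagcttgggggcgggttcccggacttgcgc
Nop2, chr6:125131633-125131882 (plus strand): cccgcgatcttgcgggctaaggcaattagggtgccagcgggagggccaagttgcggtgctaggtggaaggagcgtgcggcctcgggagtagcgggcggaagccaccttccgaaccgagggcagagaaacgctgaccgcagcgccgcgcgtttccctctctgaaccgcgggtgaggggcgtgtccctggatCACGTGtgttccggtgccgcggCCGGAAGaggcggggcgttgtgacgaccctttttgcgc
Rrn3, chr16:13780449-13780698 (plus strand): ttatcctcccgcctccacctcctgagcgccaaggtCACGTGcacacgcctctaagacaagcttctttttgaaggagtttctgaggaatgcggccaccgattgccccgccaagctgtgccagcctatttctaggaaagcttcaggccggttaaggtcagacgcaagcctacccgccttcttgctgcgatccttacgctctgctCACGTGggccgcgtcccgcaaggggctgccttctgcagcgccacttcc

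Of the other 7 genes with an E-box, 6 have it just after the start, and a stretch of 30 bases around each is shown with the E-box in capitals, so that its neighbouring bases can be compared. Utp20 is the one E-box gene that fell in the test. The remaining one, Imp4, has its E-box 121 bases before the start.
Utp20, chr10:88826765-88826794 (minus strand): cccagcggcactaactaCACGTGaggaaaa
Ltv1, chr10:13193092-13193121 (minus strand): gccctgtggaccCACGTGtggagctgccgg
Pes1, chr11:3963965-3963994 (plus strand): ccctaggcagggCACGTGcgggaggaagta
Mybbp1a, chr11:72441347-72441376 (plus strand): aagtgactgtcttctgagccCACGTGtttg
Tsr1, chr11:74898092-74898121 (plus strand): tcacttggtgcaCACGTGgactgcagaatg
Wdr43, chr17:71616220-71616249 (plus strand): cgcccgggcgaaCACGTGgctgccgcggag

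The first comparison asks how the genes responded to TGF-b over Smad2KO, Smad3KO and WT cells. The mean response was below 0 for 39 of the 44 genes and above 0 for 5, with a range between -0.31 and 0.15 on the log2 scale, and 6 genes passed the test. The median log2 response of the 44 genes was -0.17, a change in signal of -11.1%, against -0.019 for all genes tested and -0.027 for the 3360 genes at least as bright as the dimmest of the 44 (a subset chosen after seeing the data). Over all 9453 genes tested, the mean response was below 0 for 5061, and over those 3360 for 1899.

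In the limma fit, 6 of the 44 genes fell, where 5.61% of all genes tested fell, and 0 rose, where 7.16% of all genes rose. Of the 3360 genes at least as bright as the dimmest of the 44, 262 fell and 247 rose. At an unadjusted p under 0.05, 21 were lower (14.5% of all genes tested) and 0 higher (13.7%). The 6 were Rrp1b and Ddx18 of 60S assembly, Ddx10, Utp20 and Heatr1 of the small-subunit processome, and Nolc1, a chaperone of snoRNA particles. All 3 arrays with TGF-b lay below all 3 arrays without it for 23 of 44 genes, against 14.3% of all genes tested, and above them for 0 of 44, against 13.3%. The ratio was below 0 in each of the 3 genotypes for 32 of 44 genes (26.5% of all genes tested) and above 0 in each for 1, Ncl (23% of all genes tested). The calls rest on few arrays: with the mean over 3 genotypes and 2 residual degrees of freedom, leaving out the WT pair left 0 calls, leaving out the Smad2KO pair left 3, and leaving out the Smad3KO pair gave 11, while the median stayed between -0.16 and -0.15. No call was left either with no filter on dim probe sets, without trend and robust moderation, or with all 8 arrays in the fit, and 1 was left with no genotype block.

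**Figure D1:**
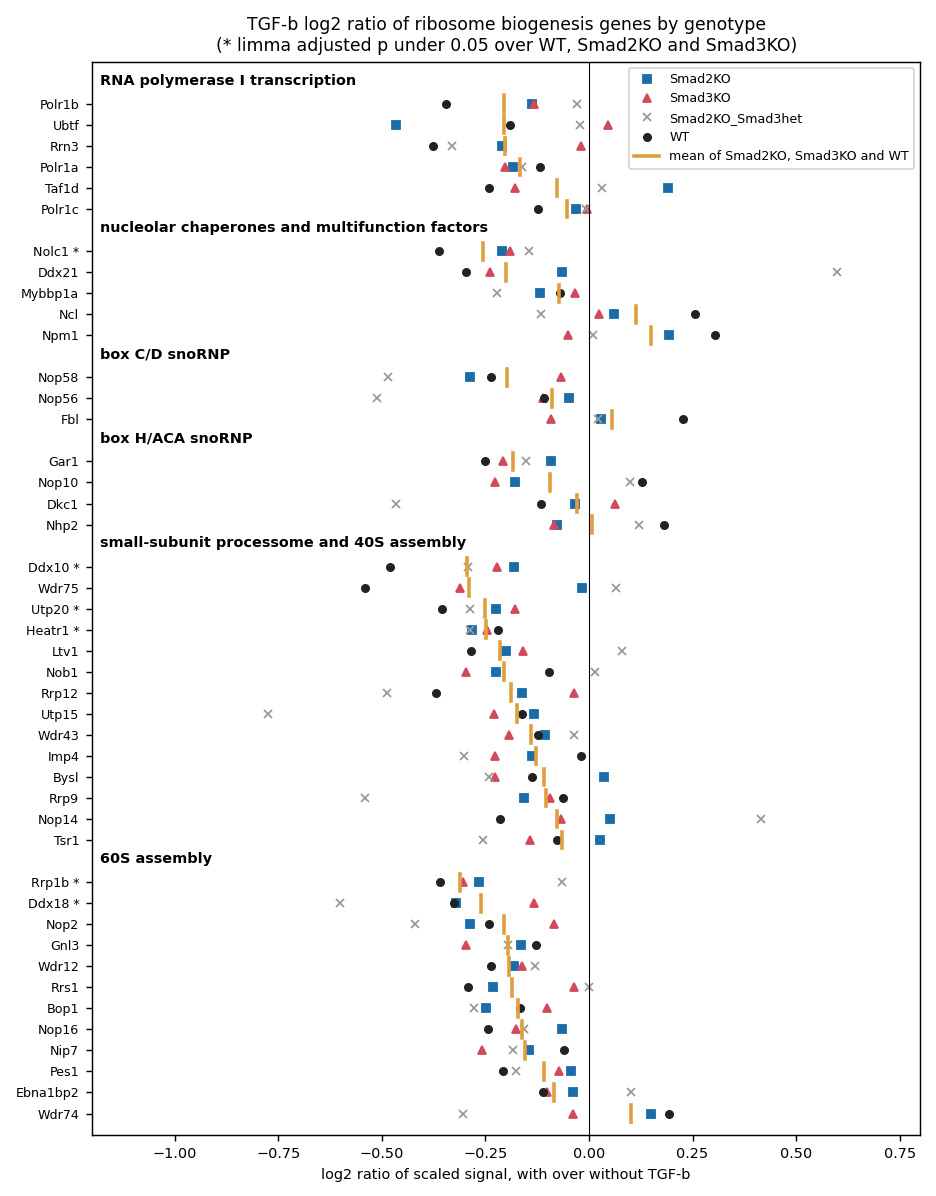
Log2 ratio of scaled signal with over without TGF-b (x axis) for each of the 44 genes (rows, by role) in Smad2KO (squares), Smad3KO (triangles), Smad2KO_Smad3het (crosses) and WT cells (circles), 1 pair of arrays each. Vertical bars are the mean of Smad2KO, Smad3KO and WT, which lies left of 0 for 39 of 44 genes.

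Rrp1b, the homologue of the yeast 60S assembly factor Rrp1, had the largest drop of the 44. Its scaled signal was 1821 in Smad2KO, 1639 in Smad3KO and 1552 in WT cells with TGF-b, against 2189, 2024 and 1993 in the same genotypes without it. Every array with TGF-b lay below every array without it. The log2 response was -0.31 (SE 0.0706, limma adjusted p 0.0137), so the signal fell by 19.4%. Smad2KO_Smad3het cells read 893 with and 933 without TGF-b. Dimmer probe sets of the gene gave -0.19 and -0.15.

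Ddx18, an RNA helicase whose yeast counterpart Has1 acts on pre-ribosomes, read 2648 in Smad2KO, 2687 in Smad3KO and 2678 in WT cells with TGF-b, against 3308, 2945 and 3356 in the same genotypes without it. The groups did not overlap, and the log2 response was -0.26 (SE 0.0702, limma adjusted p 0.0316). Smad2KO_Smad3het cells had the largest difference of the 4 genotypes, 2084 with and 3160.1 without TGF-b. Of its 2 dimmer probe sets, one gave -0.18 and the dimmest 0.12.

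Among the 12 genes of 60S assembly the median log2 response was -0.18, and 11 were below 0. Gnl3 (nucleostemin, a nucleolar GTP-binding protein) read 3554 in Smad2KO, 3486 in Smad3KO and 3528 in WT cells with TGF-b, against 3983, 4281 and 3858 in the same genotypes without it, with no overlap between the treatments. It had a log2 response of -0.20 but did not pass the test (limma adjusted p 0.0808). Ebna1bp2, the homologue of yeast Ebp2, read 3765 in Smad2KO, 3807 in Smad3KO and 3653 in WT cells with TGF-b, against 3866, 4087 and 3943 in the same genotypes without it, and its response of -0.084 did not pass either (limma adjusted p 0.437).

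The trio Pes1, Bop1 and Wdr12, which form one complex in 60S assembly, had log2 responses of -0.11, -0.17 and -0.19. Nop2, an RNA methyltransferase of the large subunit, had -0.20, and Rrs1, which acts with the 5S RNA particle, had -0.19. Nop16 and Nip7 had -0.16 and -0.15. The exception was Wdr74, whose yeast counterpart Nsa1 belongs to early 60S particles, with 0.10, above 0 in Smad2KO (0.15) and WT (0.19) but at -0.038 in Smad3KO.

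The 14 genes of the small-subunit processome and 40S assembly were all below 0 on the mean response, with a median log2 response of -0.18, and 3 of them fell in the test. Ddx10, an RNA helicase whose yeast counterpart is Dbp4, read 1277 in Smad2KO, 1192 in Smad3KO and 1082 in WT cells with TGF-b, against 1448, 1390.1 and 1510.4 in the same genotypes without it. Its lowest array was WT with TGF-b and its highest WT without. The log2 response was -0.29 (SE 0.0842, limma adjusted p 0.0401), a call lost with quantile normalization (limma adjusted p 0.0627), and a dimmer probe set gave -0.20. Smad2KO_Smad3het cells read 915 with and 1121 without TGF-b.

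Utp20, a large scaffold of the processome, read 1353 in Smad2KO, 1493 in Smad3KO and 1337 in WT cells with TGF-b, against 1580.2, 1689 and 1709 in the same genotypes without it, a log2 response of -0.25 (SE 0.0755, limma adjusted p 0.0493) that did not pass with quantile normalization (limma adjusted p 0.0776). Heatr1, the counterpart of yeast Utp10, which serves both rDNA transcription and the processome in yeast, read 1777 in Smad2KO, 1889 in Smad3KO and 1843 in WT cells with TGF-b, against 2160.3, 2239 and 2146 in the same genotypes without it. Both genes had separate treatment groups, and Heatr1 had the most even ratios, -0.28 in Smad2KO, -0.25 in Smad3KO, -0.29 in Smad2KO_Smad3het and -0.22 in WT. The Heatr1 response was -0.25 (SE 0.0692, limma adjusted p 0.0353), but of its 2 dimmer probe sets one gave -0.13 and the other 0.095. Smad2KO_Smad3het cells read 1050.5 with and 1281 without TGF-b for Utp20 and 1845 with and 2253 without TGF-b for Heatr1.

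Wdr75, the counterpart of yeast Utp17, read 2728 in Smad2KO, 2485 in Smad3KO and 2011 in WT cells with TGF-b, against 2760.4, 3085 and 2926 in the same genotypes without it. Over the 3 genotypes its ratios were the most uneven of the role, -0.017 in Smad2KO, -0.31 in Smad3KO and -0.54 in WT, and its response of -0.29 did not pass (limma adjusted p 0.072), while a dimmer probe set gave 0.12. Tsr1, a late 40S factor that resembles a translation GTPase, read 3177 in Smad2KO, 3232 in Smad3KO and 2995 in WT cells with TGF-b, against 3121, 3569.6 and 3159.6 in the same genotypes without it, with overlapping groups and a log2 response of -0.065 (limma adjusted p 0.569).

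The other 9 genes of the role ranged between -0.21 for Ltv1, an export and maturation factor of 40S, and -0.077 for Nop14, a processome subunit. Nob1, the endonuclease that makes the mature end of 18S RNA, had -0.21, and the 40S factors Rrp12 and Bysl had -0.19 and -0.11. The processome subunits Utp15, Wdr43 and Imp4 had -0.17, -0.14 and -0.13, and Rrp9, a protein of the U3 snoRNA particle, had -0.11. None of these 9 passed the test.

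**Figure D2:**
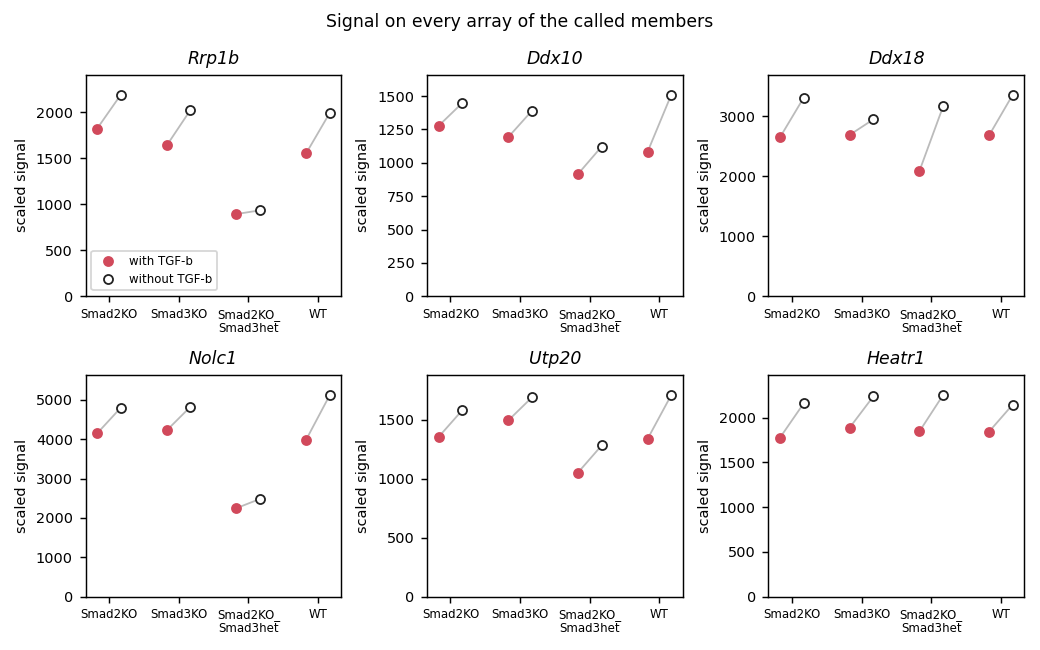
Scaled signal (y axis, from 0) on every array with TGF-b (filled) and without (open) for the 6 genes that fell over Smad2KO, Smad3KO and WT cells, 1 array per point. Each line joins the 2 arrays of a genotype, and every line is lower at its TGF-b end.

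Transcription by RNA polymerase I was represented by 6 genes, all below 0 on the mean response, with a median of -0.18 and none past the test. Polr1b, the second-largest subunit, read 1399.8 in Smad2KO, 1243 in Smad3KO and 1191 in WT cells with TGF-b, against 1539, 1362 and 1513 in the same genotypes without it, a log2 response of -0.20 (limma adjusted p 0.116). Polr1c, a subunit shared with RNA polymerase III, read 2220.2 in Smad2KO, 2424 in Smad3KO and 1940.0 in WT cells with TGF-b, against 2270.4, 2433 and 2113 in the same genotypes without it, a response of -0.054 (limma adjusted p 0.652). The treatments overlapped for both genes.

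Ubtf, the factor that opens rDNA for polymerase I, read 1043 in Smad2KO, 1308 in Smad3KO and 1226 in WT cells with TGF-b, against 1442, 1267 and 1401 in the same genotypes without it. Of the 6 it differed most between the 3 genotypes, with log2 ratios of -0.47 in Smad2KO, 0.046 in Smad3KO and -0.19 in WT cells, and its mean response of -0.20 did not pass (limma adjusted p 0.202). A dimmer probe set of Ubtf gave another pattern, 0.028 in Smad2KO, -0.45 in Smad3KO and -0.055 in WT cells. Rrn3, which brings the polymerase to its promoter, had -0.20 with separate groups, Polr1a, the largest subunit, -0.17, and Taf1d, of the promoter factor SL1, -0.077.

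Among 5 nucleolar chaperones and multifunction factors, 3 were below 0 and 1 fell. That gene, Nolc1, read 4149 in Smad2KO, 4226 in Smad3KO and 3987 in WT cells with TGF-b, against 4802, 4827 and 5124 in the same genotypes without it. The groups were separate, and the log2 response was -0.26 (SE 0.068, limma adjusted p 0.0299). Smad2KO_Smad3het cells read 2247 with and 2484 without TGF-b, and dimmer probe sets of the gene gave -0.29 and -0.21.

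Ddx21, an RNA helicase of rDNA transcription and processing, read 2985 in Smad2KO, 3272 in Smad3KO and 3112 in WT cells with TGF-b, against 3121, 3862 and 3822 in the same genotypes without it, a response of -0.20 that did not pass (limma adjusted p 0.0875). Its ratio in Smad2KO_Smad3het cells was 0.60, the most positive among the 44 genes in any genotype. A dimmer probe set of Ddx21 ran the other way in these cells, at -0.18. Mybbp1a, a nucleolar regulator of transcription, had -0.073.

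The abundant nucleolar proteins Ncl and Npm1 did not share the direction. Ncl (nucleolin) read 12594 in Smad2KO, 13623 in Smad3KO and 14238 in WT cells with TGF-b, against 12077, 13399.6 and 11929.7 in the same genotypes without it, a log2 response of 0.11 (limma adjusted p 0.326). Npm1 (nucleophosmin, a chaperone of histones and ribosomal proteins) read 14905 in Smad2KO, 15211 in Smad3KO and 16352 in WT cells with TGF-b, against 13028, 15767 and 13252 in the same genotypes without it, a response of 0.15 (limma adjusted p 0.238). Neither passed, both sets of arrays overlapped, and under quantile normalization the responses were -0.037 and -0.010. Of the 5 bright probe sets of Ncl only the brightest was above 0, and the others gave -0.077, -0.088, -0.47 and -0.31.

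The box C/D particle methylates ribosomal RNA. Its methyltransferase Fbl (fibrillarin) read 7186 in Smad2KO, 7459 in Smad3KO and 8288 in WT cells with TGF-b, against 7048, 7945 and 7078 in the same genotypes without it, a response of 0.055 (limma adjusted p 0.672). The scaffold proteins were both below 0. Nop56 read 5729 in Smad2KO, 6174 in Smad3KO and 5811 in WT cells with TGF-b, against 5928, 6672 and 6268 in the same genotypes without it, a response of -0.090 (limma adjusted p 0.398). Nop58 read 2374 in Smad2KO, 2585 in Smad3KO and 2525 in WT cells with TGF-b, against 2896, 2711 and 2975 in the same genotypes without it, with separate groups and a response of -0.20 (limma adjusted p 0.0936). In Smad2KO_Smad3het cells the ratios of Nop56 and Nop58 were -0.51 and -0.48.

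The box H/ACA particle converts uridine to pseudouridine, with Dkc1 (dyskerin) as its enzyme and Gar1, Nhp2 and Nop10 as its other core proteins. Gar1 read 3739 in Smad2KO, 3889 in Smad3KO and 3482 in WT cells with TGF-b, against 3983, 4495 and 4143 in the same genotypes without it, with separate groups and a response of -0.18 (limma adjusted p 0.097). Nop10 read 6483 in Smad2KO, 7342 in Smad3KO and 7643 in WT cells with TGF-b, against 7342, 8598 and 6996 in the same genotypes without it, a response of -0.093 (limma adjusted p 0.479). The ratio of Nop10 was below 0 in Smad2KO and Smad3KO cells and above 0 in WT cells. A dimmer probe set of Nop10 was below 0 in each, at -0.16, -0.12 and -0.16.

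Nhp2 read 6982 in Smad2KO, 8044 in Smad3KO and 8325 in WT cells with TGF-b, against 7362, 8530.5 and 7338 in the same genotypes without it, a response of 0.0070 (limma adjusted p 0.963) that was -0.033 under quantile normalization and -0.0090 with arrays centred on their median. Dkc1 had -0.028. No gene of either snoRNA particle passed the test.

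**Figure D3:**
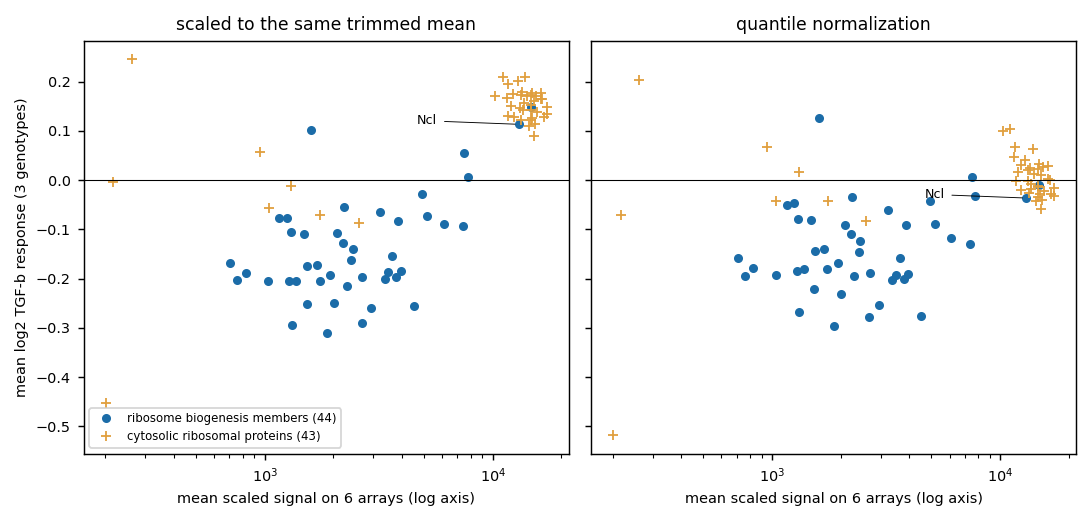
Mean log2 TGF-b response over Smad2KO, Smad3KO and WT cells (y axis) against mean scaled signal on the 6 arrays (log x axis) for the 44 ribosome biogenesis genes (circles) and 43 cytosolic ribosomal protein genes (plus signs), under 2 normalizations. Ncl and most ribosomal protein genes are above 0 with trimmed-mean scaling and near 0 with quantile normalization, while the dimmer genes keep their place.

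Where a gene had several bright probe sets, most ran the same way: of 31 such genes, 24 had every probe set on the same side of 0, and of 90 bright probe sets in all, 78 were below 0. These probe sets share the RNA of the same arrays and are not independent.

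Genes of the same pathway outside the 46 were counted from fixed lists. Of 44 other small-subunit assembly genes, 36 were below 0 (median -0.13), 3 fell (5.61% of all genes tested) and 0 rose (7.16%), so the share that fell is near the background. Nol10 had -0.39, Tsr2 -0.30 and Pwp2 -0.37 (limma adjusted p 0.0198, 0.0215 and 0.0316). Of 45 other large-subunit assembly genes, 39 were below 0 (median -0.12), 4 fell and 0 rose, against the same background. Urb1, the counterpart of a yeast 60S factor, had -0.48 and Rrp15 -0.26 (limma adjusted p 0.0105 and 0.0318), and the others were Nol9 and Urb2. Among 10 snoRNP assembly genes (median -0.14) 2 fell, namely Tcof1 (treacle, of rDNA transcription and snoRNA particles, -0.42) and Ruvbl1 (an ATPase of snoRNP assembly, -0.32), with limma adjusted p 0.00561 and 0.0229. In these 3 lists no call was left without the WT pair, with no filter on dim probe sets, without trend and robust moderation or with all 8 arrays, and 1 in each was left with no genotype block or without the Smad2KO pair.

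None of 9 other polymerase I genes (median -0.10), 13 exosome genes (-0.070) and 19 polymerase III genes (-0.016) passed the limma test, with Taf1c (-0.33, unadjusted p 0.0148), Exosc1 (-0.26, 0.0083) and the polymerase III repressor Maf1 (0.27, 0.00912) having the smallest p of each list. Of 72 mitochondrial ribosomal protein genes (median -0.093), 3 fell (Mrpl45, Mrpl38 and Mrpl54) and 1, Mrps6, rose. Of 15 nucleotide synthesis genes (median -0.095), Prps1 (0.75) and Nme1 (0.44) rose and Ppat (-0.28), the first enzyme of purine synthesis, fell. Of 27 translation factors (median 0.052, but -0.011 with quantile normalization), Eif1a fell (-0.38, limma adjusted p 0.0111). Of all genes tested, 5.61% fell and 7.16% rose. Of the calls in these last 3 lists, only Prps1 was kept without the WT pair, with no filter on dim probe sets or without trend and robust moderation. None was kept with all 8 arrays. With the second brightest probe set Nme1 gave 0.019 and Mrpl38 -0.012, while Mrps6, Ppat and Eif1a kept their direction.

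The 43 cytosolic ribosomal protein genes had a median response of 0.15 with trimmed-mean scaling and -0.0023 with quantile normalization, and 0 passed the limma test with either, but without the Smad3KO pair 16 rose and 1 fell. Their median ratios were 0.15 in Smad2KO, -0.020 in Smad3KO, 0.084 in Smad2KO_Smad3het and 0.30 in WT cells. The median of the 44 ribosome biogenesis genes was -0.17 with trimmed-mean scaling and -0.15 with quantile normalization. Of 10 tested p53 target genes, a group that can rise when ribosome assembly is disturbed, 0 rose (7.16% of all genes tested) and 1 fell (5.61%). That gene was Plk2 (-1.34, limma adjusted p 0.00139), and 7 of the 10 were below 0. Whether ribosome assembly was disturbed was not tested.

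**Figure D4:**
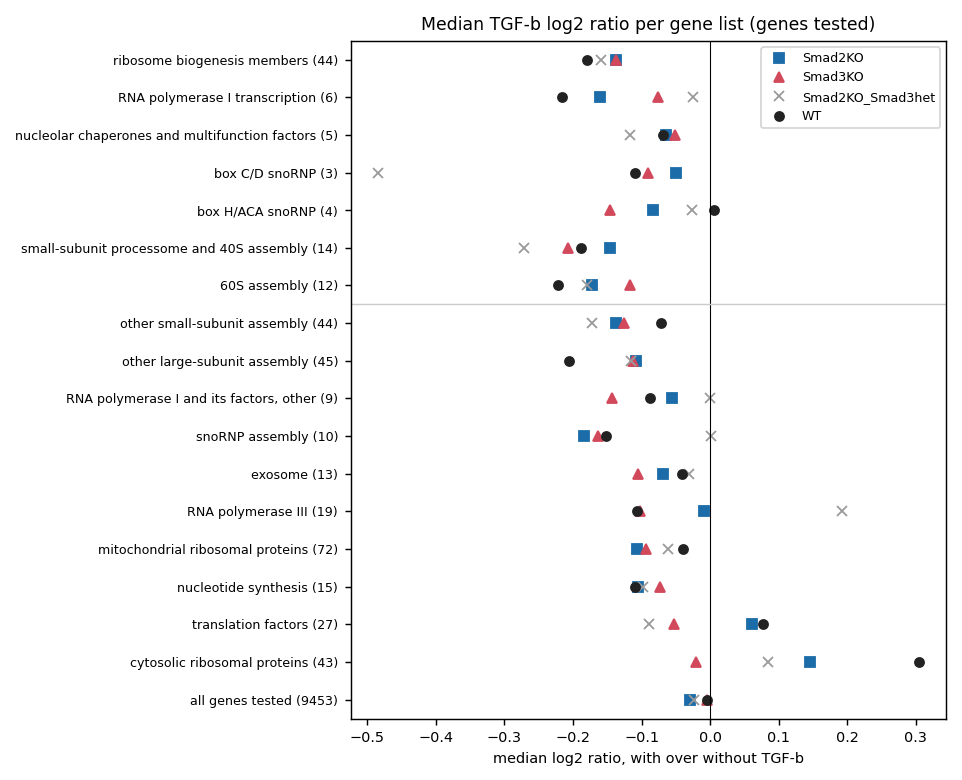
Median log2 ratio with over without TGF-b (x axis) in Smad2KO (squares), Smad3KO (triangles), Smad2KO_Smad3het (crosses) and WT cells (circles) for the 44 ribosome biogenesis genes, their 6 roles (above the line), related gene lists and all genes tested (below it), with the number of genes in brackets. The 44 genes lie between -0.18 and -0.14 in the 4 genotypes, while cytosolic ribosomal proteins lie between -0.020 and 0.30.

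Myc itself fell with TGF-b. It read 3568 in Smad2KO, 3011 in Smad3KO and 3319.8 in WT cells with TGF-b, against 4202, 3667 and 3764 in the same genotypes without it, and 1671 with and 1843 without TGF-b in Smad2KO_Smad3het cells. The log2 response was -0.23 (SE 0.0654, limma adjusted p 0.0364), with separate treatment groups over the 3 tested genotypes. The call was lost when any one of the 3 genotypes was left out (limma adjusted p between 0.0703 and 0.221), with all 8 arrays, with no genotype block, with no filter on dim probe sets and without trend and robust moderation. Median responses were -0.14 for the 9 genes with an E-box in the promoter window and -0.17 for those without, and -0.18 for the 13 with the ETS motif and -0.16 for those without.

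The 18S RNA probe sets, which read ribosomal RNA carried into the labelling, varied between arrays. Their range over 3 probe sets was 123 to 226 with and 35 to 79.5 without TGF-b in Smad2KO, 716 to 997 with and 877 to 2544 without in Smad3KO, and 70.7 to 184 with and 2614 to 4020 without in WT cells. Each of these signals was higher with TGF-b in Smad2KO and lower with TGF-b in Smad3KO and WT cells. Ratios of 3′ to 5′ signal, a measure of RNA integrity, were 1.12 to 1.19 for Actb and 0.785 to 0.835 for Gapdh on the 6 arrays. In Smad2KO_Smad3het cells they were 1.55 with and 1.25 without TGF-b for Actb, and 0.900 with and 0.891 without for Gapdh. The part of the 18S signal in the gene values was not tested.

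The second comparison asks whether the response depended on the genotype. The median response was below 0 in each. The median log2 ratio of the 44 genes was -0.14 in Smad2KO, -0.14 in Smad3KO, -0.16 in Smad2KO_Smad3het and -0.18 in WT cells, against -0.030, -0.0043, -0.023 and -0.0052 for all genes tested. Ratios were below 0 for 36 genes in Smad2KO (54.3% of all genes tested), 41 in Smad3KO (50.9%), 33 in Smad2KO_Smad3het (52.4%) and 38 in WT cells (50.6%). Among the 3360 genes at least as bright as the dimmest of the 44, they were below 0 for 1895, 1981, 1976 and 1730. No gene of the 44 differed by 2-fold in any genotype. Of all genes tested, 1.68% were at least 2-fold lower and 2.81% higher with TGF-b in Smad2KO, 0.793% and 1.8% in Smad3KO, 5.64% and 5.68% in Smad2KO_Smad3het and 2.81% and 4.41% in WT cells.

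Tests of the difference itself found none among the 44. For the mean response of Smad2KO and Smad3KO minus that of WT, limma called 0 of 44 in either direction (0.0106% of all genes tested each way), and 4 had an unadjusted p under 0.05, with a higher response in 1 (3.2% of all genes tested) and a lower one in 3 (4.22%), which is near the background. These were Nop10 (difference -0.33, SE 0.0999, unadjusted p 0.0132), Nhp2 (-0.26), Fbl (-0.26) and Wdr75 (0.38), each with a limma adjusted p between 0.584 and 0.664. Their dimmer probe sets did not repeat these differences. In Smad2KO, Smad3KO and WT cells the ratios were -0.16, -0.12 and -0.16 for Nop10 and -0.052, -0.090 and -0.063 for Nhp2. For Fbl they were 0.080, 0.085 and -0.16, and for Wdr75 0.28, -0.090 and 0.17.

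For Smad3KO minus the genotypes with intact Smad3, limma also called 0 of 44, where 0.138% of all genes tested were higher and 0.243% lower. At an unadjusted p under 0.05, 1 was higher (4.54% of all genes tested), Ubtf (difference 0.38, SE 0.17, limma adjusted p 0.561). Its dimmer probe set differed in the other direction, with ratios of -0.45 in Smad3KO, 0.028 in Smad2KO and -0.055 in WT cells. With 1 residual degree of freedom these tests could miss differences of the size of the response, so they do not show that the genotypes responded alike.

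The third comparison sets the levels of the genotypes against each other, with treatment as a block. Levels of the 44 genes were close between Smad2KO, Smad3KO and WT cells. On the Smad2KO_Smad3het arrays, which stood apart and were not tested, their median signal was 1417 with and 1593 without TGF-b. It was 1976 and 2312 in WT cells. In Smad2KO against WT cells the median difference was -0.0042 on the log2 scale, with a range between -0.18 for Ddx21 and 0.22 for Nop16. The dimmer probe set of Ddx21 ran the other way, at 2752 with and 3058 without TGF-b in Smad2KO, against 2456 and 2894 in WT cells. Limma called 0 of 44 higher (0.508% of all genes tested) and 0 lower (0.497%), and Nop16 had the one unadjusted p under 0.05 (0.0273, adjusted 0.427), where 4.52% of all genes tested were higher at that threshold. Smad2KO was above WT both with and without TGF-b for 10 genes (26.4% of all genes tested) and below for 11 (30%).

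In Smad3KO against WT cells the median difference was 0.048. It was 0.0054 for all genes tested and 0.034 for the 3360 genes at least as bright as the dimmest of the 44. The difference was below 0 for 12 of the 44 genes and for 1292 of those 3360. Limma called 0 of 44 higher (0.222% of all genes tested) and 0 lower (0.243%). Smad3KO was above WT in both treatments for 17 genes (27.4% of all genes tested) and below in both for 1 (25.8%). Polr1c was highest, with a difference of 0.26 (SE 0.0847, unadjusted p 0.00961, limma adjusted p 0.247), the one gene under an unadjusted 0.05, where 5.43% of all genes tested were higher. It read 2424 with and 2433 without TGF-b in Smad3KO cells, against 1940.0 with and 2113 without in WT cells.

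In Smad3KO against Smad2KO cells the median difference was 0.056. It was 0.0036 for all genes tested and 0.042 for the 3360 genes at least as bright as the dimmest of the 44. Limma called 0 of the 44 higher (1.54% of all genes tested) and 0 lower (1.13%). At an unadjusted p under 0.05, 3 were higher (9.1% of all genes tested), Polr1a (0.33), Ddx21 (0.22) and Nhp2 (0.21), and 1 was lower (6.98%), Nop16 (-0.29), shares no larger than the background, with limma adjusted p between 0.113 and 0.284. The second brightest probe sets of the 3 higher genes ran the other way. With and without TGF-b, that of Ddx21 read 2475 and 2550 in Smad3KO against 2752 and 3058 in Smad2KO cells. In the same order, that of Nhp2 read 5531 and 5887 against 6147 and 6370, and that of Polr1a 292 and 258 against 370 and 436. A dimmer probe set of Polr1a ran the same way as its brightest. The proliferation marker Mki67 was higher in Smad3KO than in WT cells, by 0.51 on the log2 scale (limma adjusted p 0.0480). That call was lost with all 8 arrays in the fit, where 0 of all genes were called higher in Smad3KO. The part of Mki67 in the levels of the 44 genes was not tested.

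**Figure D5:**
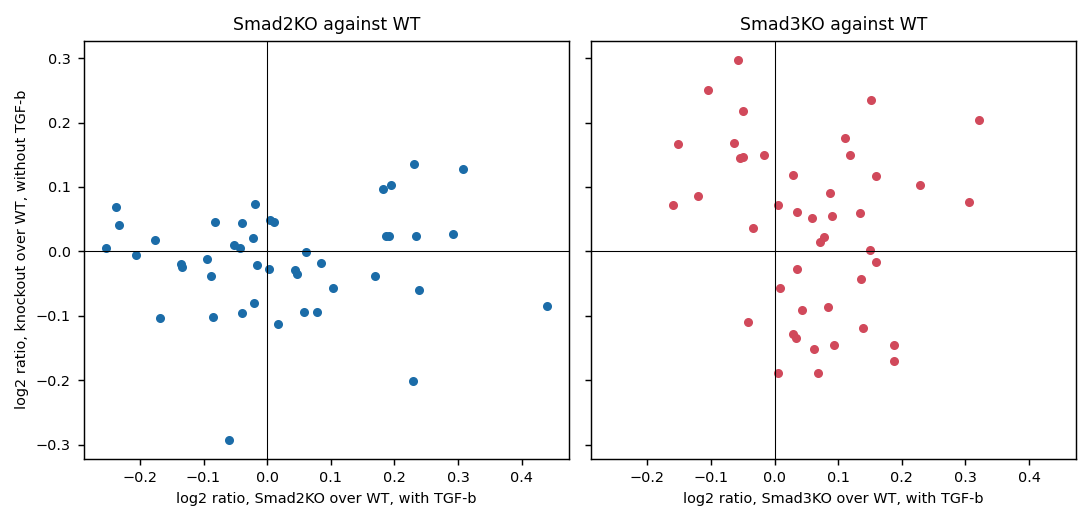
Log2 ratio of the knockout over WT with TGF-b (x axis) and without TGF-b (y axis) for each of the 44 genes, for Smad2KO (left) and Smad3KO (right). For Smad3KO 17 genes lie above 0 on both axes and 1 below 0 on both, and for Smad2KO 10 and 11.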

How the data were processed

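The deposited values are intensities of 45101 probe sets on a linear scale, 1 Affymetrix array per sample; the submitters' processing notes name GCOS 1.4 (Affymetrix software), whose algorithm and scaling were not given in the sources used here. Arrays were brought to a common 2% trimmed mean, signals under the median of the 6 main arrays (32.5) were raised to that floor, and values were put on a log2 scale. The platform annotation gave 34945 probe sets 1 symbol, 932 several and 9160 none, besides 64 controls; only the first were used. A gene was read from its brightest probe set over the 6 arrays and tested if its highest value reached 2 times the floor.

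The TGF-b response and the levels were fitted with limma 3.58.1 (R 4.3.3) on the 6 arrays as genotype plus treatment, with trend and robust moderation and Benjamini-Hochberg adjustment over all genes at 0.05. Differences between responses used an interaction term. An SE is that of the log2 estimate. The fit was tested on simulated data; it recovered none of the smallest changes, which exceeded the median response of the 44 genes, and missed some of the largest, so a gene that missed the threshold is not shown to be unchanged.

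The genes, lists, motifs and tests were chosen with earlier results of these data known. Genes given on every array were those called in a test and, in each role, the 2 brightest and the 2 with the largest response. Figures were drawn with matplotlib 3.10.9. Alternatives in normalization, floor, filter, probe set, moderation, block and arrays are given in the closing section.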

Additional observations from a re-analysis of the deposited data

How the results depend on the processing

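The median response of the 44 genes to TGF-b was below 0 under every alternative run, between -0.19 and -0.14 (-0.14 with the second brightest probe set, which 31 of the genes had). The number of genes lower with TGF-b, 6, depended on the setting. It was 0 with no filter on dim probe sets, 0 without trend and robust moderation, 0 with all 8 arrays, 1 with no genotype block, 4 with quantile normalization, 3 with the mean of a gene's probe sets and 2 with the second brightest probe set, and between 0 and 11 when 1 genotype was left out, while 0 genes were called higher in any of them. By genotype, centring arrays on their median gave medians of -0.13 in Smad2KO, -0.17 in Smad3KO and -0.21 in WT. Averaging probe sets gave -0.12 in Smad2KO, -0.12 in Smad3KO and -0.19 in WT.

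Some responses turned direction. With quantile normalization Ncl gave -0.037, Npm1 -0.010 and Nhp2 -0.033, with centred arrays Nhp2 gave -0.0090, with probe sets averaged Ncl gave -0.17 and Nhp2 -0.031, and with the second brightest probe set Ncl gave -0.077, Nhp2 -0.068, Wdr75 0.12, Heatr1 0.095 and Bop1 0.15. Nop14 gave 0.046 with all 8 arrays. Leaving out 1 genotype gave Taf1d between -0.21 and 0.0055, Fbl between -0.031 and 0.13, Dkc1 between -0.074 and 0.015 and Nhp2 between -0.081 and 0.053. The causes were not tested.

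Level medians near 0 moved too. Smad2KO against WT (-0.0042) gave 0.010 with quantile normalization, 0.027 with probe sets averaged and between -0.0087 and 0.0034 within a treatment. Smad3KO against WT (0.048) gave 0.027 with quantile normalization, 0.051 with centred arrays, 0.044 with probe sets averaged and between 0.048 and 0.061 with arrays left out. The response of Smad3KO minus that of the genotypes with Smad3 (-0.0083) gave 0.0069 with quantile normalization and 0.013 with probe sets averaged, and that of the mutants minus WT (0.049) gave -0.014 with all 8 arrays. The labels carry no replicate numbers, and the genotype block pairs the 2 arrays of a genotype. The median differences given here are smaller than any change the fit recovered in simulated data.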
